A study of Mus musculus with 18 samples.

Results

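The chromatin around 5 inhibitory receptor genes of T cells, Pdcd1, Lag3, Tigit, Havcr2 and Btla, was described in naive CD4 T cells. Open chromatin was measured by ATAC-seq, in which a transposase cuts accessible DNA and leaves sequencing adapters there. The peaks of 18 libraries were merged into 33115 union regions wherever they overlapped by at least 1 bp, and 21 regions were taken whose nearest protein-coding gene end, within 100000 bp of the region centre, belonged to 1 of the 5 genes. Of these, 6 lay nearest to Pdcd1, 7 to Tigit, 5 to Btla, 3 to Lag3 and 0 to Havcr2.

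The cells came from untreated C57BL6/J mice labelled WT that carried Nr4a1-dsGFP, a destabilised fluorescent reporter of Nr4a1, a gene that T cell receptor signals switch on. Cells with high and cells with low reporter, called high and low tonic TCR stimulation in the labels, were taken freshly from 3 lymphoid organs: spleen, mesenteric lymph nodes and axillary lymph nodes. Each of the 6 groups (high and low in each of 3 organs) had 3 libraries that the labels call biological replicates, with 9 high and 9 low libraries in all. The labels do not say which libraries came from separate animals, nor give the age or sex of the mice, so the p-values cover the spread among these libraries alone, and part of that spread may be technical.

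Inhibitory receptors sit on the surface of T cells and, when they bind their ligands, dampen signals from the T cell receptor and from CD28. PD-1, the product of Pdcd1, binds the ligands encoded by Cd274 and Pdcd1lg2 and recruits the phosphatase SHP-2. LAG-3 resembles CD4 and binds MHC class II, TIGIT competes with the activating receptor CD226 for ligands of the nectin family, TIM-3 (Havcr2) marks activated helper and exhausted T cells, and BTLA binds HVEM, the product of Tnfrsf14. In naive CD4 T cells BTLA is present at rest, whereas PD-1, LAG-3, TIGIT and TIM-3 are known mainly from activated, regulatory, follicular helper or exhausted cells.

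The 250 bases before the gene start are shown for the 4 genes matched in a RefSeq promoter table (build GRCm38.p6, which is mm10), since peaks lay over 3 of these promoters and 0 peaks over that of Havcr2. Each reads 5′ to 3′ on the gene's own strand and ends at the base before the start given in that table. Distances upstream and downstream count from this start, which is the end of the annotated gene in Pdcd1 and Havcr2 but lies 941 bp inside the annotated gene in Tigit and 632 bp inside it in Btla. Capitals mark the ETS core GGAA on either strand, the NFAT sequence GGAAAA on either strand (in Tigit, where it overlaps a GGAA) and the AP-1 sequence TGANTCA (in Havcr2).
Pdcd1 (chr1:94052554-94052803, minus strand): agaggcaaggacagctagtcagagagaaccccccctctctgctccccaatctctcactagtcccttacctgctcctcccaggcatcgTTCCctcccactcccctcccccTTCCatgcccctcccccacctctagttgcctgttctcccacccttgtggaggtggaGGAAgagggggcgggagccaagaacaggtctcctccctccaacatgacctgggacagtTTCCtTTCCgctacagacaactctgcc
Tigit (chr16:43664185-43664434, minus strand): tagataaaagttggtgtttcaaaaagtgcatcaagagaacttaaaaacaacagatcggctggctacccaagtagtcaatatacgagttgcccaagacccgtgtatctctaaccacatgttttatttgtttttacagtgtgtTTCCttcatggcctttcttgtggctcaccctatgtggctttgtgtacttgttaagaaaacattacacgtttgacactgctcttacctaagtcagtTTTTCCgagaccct
Btla (chr16:45224087-45224336, plus strand): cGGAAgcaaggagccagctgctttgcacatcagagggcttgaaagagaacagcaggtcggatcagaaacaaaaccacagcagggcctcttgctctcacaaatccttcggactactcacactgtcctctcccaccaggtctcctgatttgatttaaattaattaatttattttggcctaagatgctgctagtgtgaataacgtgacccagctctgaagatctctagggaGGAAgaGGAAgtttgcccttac
Havcr2 (chr11:46454681-46454930, plus strand): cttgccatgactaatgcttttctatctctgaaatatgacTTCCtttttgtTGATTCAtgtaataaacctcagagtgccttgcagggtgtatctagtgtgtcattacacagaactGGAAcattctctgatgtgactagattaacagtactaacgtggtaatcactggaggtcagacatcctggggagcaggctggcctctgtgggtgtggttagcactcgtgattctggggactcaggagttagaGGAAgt

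The Pdcd1 promoter was the richest of the 4 in G and C, with 60.4% against 40.0% in Tigit, 47.2% in Btla and 44.8% in Havcr2, and the median of 21044 promoters was 55.6%. All 4 held few CpG dinucleotides, 3 in Pdcd1, 5 in Tigit, 4 in Btla and 2 in Havcr2, against a median of 10. GGAA occurred 5 times in Pdcd1, 2 times in Tigit, 3 times in Btla and 3 times in Havcr2, but 93.1% of all promoters of the table hold it. GGAAAA was found once in Tigit and is in 19.9% of all promoters, and TGANTCA once in Havcr2 and is in 6.17%. Searched on both strands, the NR4A sequence AAAGGTCA (1.21% of all promoters), the TCF/LEF sequence CTTTGA (12.8%) and an IRF element (2.98%) were in none of the 4 windows. A union region covered all 250 bases of the Tigit and the Btla window, 170 bases of the Pdcd1 window and 0 of the Havcr2 window.

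The libraries differed in depth, which sets how many peaks can be called. The lists held 22885 to 23129 peaks in mesenteric high cells and 17203 to 17490 in mesenteric low cells, 17298 to 17960 in spleen high cells and 14514 to 18008 in spleen low cells, and 14778 to 15898 in axillary high cells and 14372 to 15092 in axillary low cells. The genome-wide background recovered from the peak values ran from 8.48 to 16.6 reads per 10 kb. The peak caller's estimate of fragment length was 216 to 236 bp in 6 libraries, which were spleen low 3, axillary high 1 and 3 and all axillary low libraries, and 161 to 176 bp in the other 12. All 8 genes on a list of naive CD4 T cell markers (such as Cd4 and Lef1) had regions, 44 in all, of which 11 had a peak in every library. On the CD8 list 2 of 2 genes had regions (3 in all, 1 in every library), and on the regulatory T cell list 2 of 3 (16 in all, 2 in every library), with none for Foxp3. On the NK list 1 of 3 genes had regions (2 in all, 1 in every library), with none for Ncr1 and Nkg7, and on the B cell list 1 of 4 genes had 1 region, with a peak in 1 spleen high library and none for Ms4a1 and Cd79a. On the myeloid list 1 of 3 genes had regions (5 in all, 0 in every library), with none for Lyz2 and Csf1r; 1 to 3 of these had a peak in mesenteric high libraries and 0 to 1 in the others. Regulatory T cell regions with a peak numbered 7 to 8 in mesenteric high libraries and 2 to 5 elsewhere. Regions of the naive CD4 list rose there as well, with 29 to 36 in mesenteric high libraries and 12 to 25 elsewhere. The part of other cell types in the results was not tested.

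Of the 21 receptor regions, 10 had a peak in all 18 libraries. That is more than the 26.4% of all union regions with a peak in every library, a description with no test. These 10 were 3 regions each of Pdcd1, Tigit and Btla and 1 of Lag3. A library held peaks in 15 to 17 of the 21 regions in mesenteric high cells and 13 to 14 in mesenteric low cells, in 12 to 13 of both spleen high and spleen low cells, and in 12 to 13 in axillary high cells and 13 to 15 in axillary low cells. Of all union regions, a library held 68.1 to 68.9% in mesenteric high and 51.2 to 51.9% in mesenteric low cells. The share was 51.5 to 53.3% in spleen high and 43.5 to 53.5% in spleen low cells. Axillary high libraries held 44.3 to 47.3% and axillary low ones 43.1 to 45.1%. Mesenteric high libraries thus held more regions of every kind. Peak presence was tested by Fisher's exact test between 9 high and 9 low libraries in regions with a peak in 6 to 12 libraries. The test called 0 of 5737 regions (0.00%) at an adjusted p under 0.05, and 350 (6.10%) had an unadjusted p under 0.05. One receptor region could be tested, the region 90.1 kb downstream of the Tigit start, which 5 high and 5 low libraries shared (Fisher's exact p = 1).

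**Figure D1:**
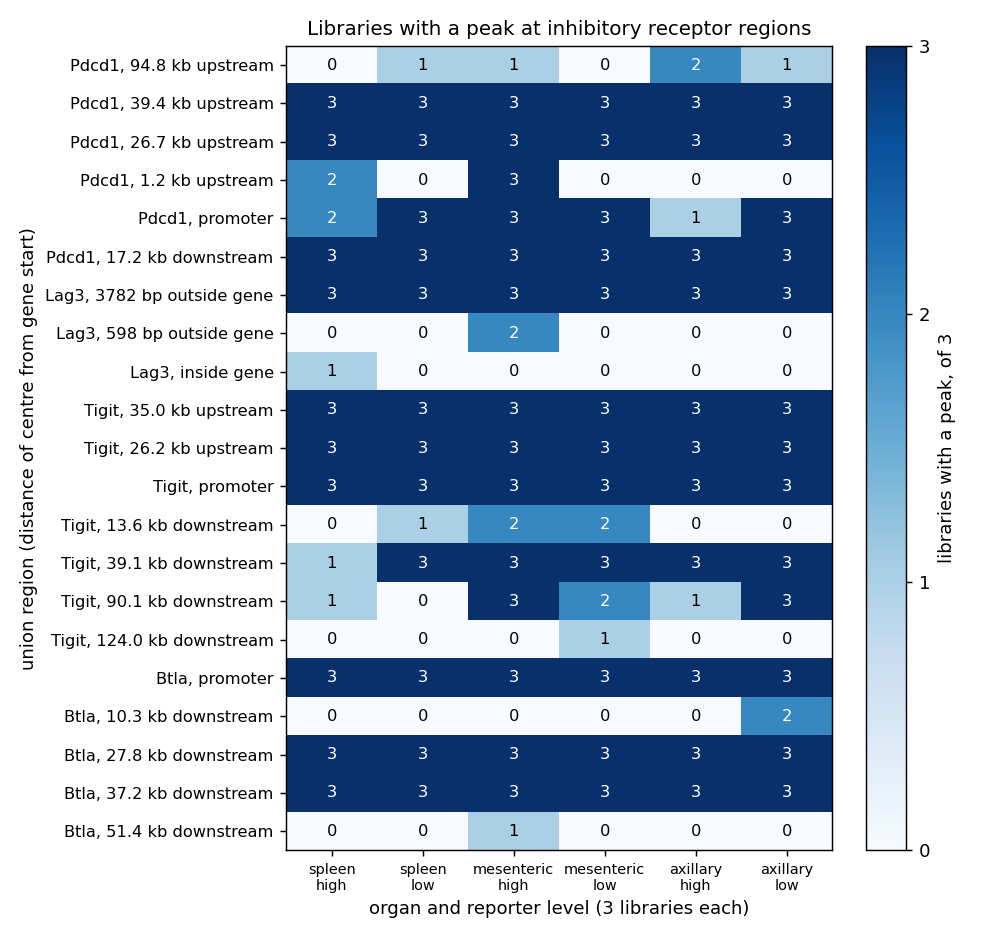
Libraries with a peak (0 to 3, printed in each cell) at the 21 regions nearest to Pdcd1, Lag3, Tigit and Btla, in rows, for the 6 groups in columns, with high left of low in each organ. The region 1.2 kb upstream of Pdcd1 has a peak in 5 high libraries and 0 low libraries, and 10 regions have a peak in all 18.

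Pdcd1 lies on the minus strand of chromosome 1 (chr1:94038305-94052553), and its 6 regions were the promoter, 4 regions upstream and 1 region behind the gene. The region 1.2 kb upstream of the start (chr1:94053620-94053956, 1235 bp outside the gene) was listed in 5 high libraries and 0 low ones. These were all 3 mesenteric high libraries, with 27, 25 and 23 reads at the summit, and spleen high 2 and 3, with 21 and 13. Summit reads are the fragments stacked at the highest point of a peak, recovered from the deposited fold enrichment and p. None of the mesenteric low, spleen low, axillary high or axillary low libraries, nor spleen high 1, listed a peak there.

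A region with 5 peaks cannot be tested by the rule used for high against low, so its count is a description. In mesenteric nodes, 3 of 3 high and 0 of 3 low libraries listed it, a pattern held by 3.14% of all union regions. Of the 1163 regions in the whole series with a peak in exactly 5 libraries, 94 (8.08%) had all 5 in high libraries and 4 (0.344%) had all 5 in low libraries. When every list was shortened to the strongest 14372 peaks, the Pdcd1 region kept 5 high and 0 low peaks, against a share of 4.04% of 5-library regions that were all high and 1.97% that were all low. With reads thinned to the shallowest library it kept 4 high and 0 low peaks, and 14.2% of 4-library regions were then all high and 1.98% all low. Its count was also 5 and 0 among peaks with a −log10 p of at least 10. These settings can only remove listed peaks, so the 0 low peaks were fixed in advance. Only the loss of high peaks could be seen. The presence test across the 3 organs (3 mesenteric, 2 spleen and 0 axillary libraries) gave an exact Fisher-Freeman-Halton p of 0.275 and an adjusted p of 0.629.

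At the background around the Pdcd1 promoter, 8 to 10 summit reads would have given a −log10 p of 5, the smallest deposited, in the 10 libraries that had a promoter peak but no upstream peak. The 5 upstream peaks had 13 to 27 summit reads and a −log10 p of 10.1 to 21.5, and their summits lay 1188 to 1245 bp upstream of the gene start. The 3 mesenteric high libraries were the deepest of the series, with 16.5 to 16.6 background reads per 10 kb, and spleen high 2 and 3 had 14.0 in both. Among the libraries without the peak, the mesenteric low ones had 11.7 to 12.6, spleen high 1 had 13.2, the spleen low ones had 9.84 to 14.4 and the axillary ones 8.48 to 10.2. Regions of the effector, memory and follicular helper marker list (Cxcr5, Bcl6, Cd44, Prdm1) with a peak numbered 16 to 19 in mesenteric high and 12 to 14 in mesenteric low libraries, 11 to 17 in spleen high and 13 to 14 in spleen low, and 13 to 14 in axillary high and 11 to 13 in axillary low. Regions of the naive CD4 list numbered 29 to 36 in mesenteric high and 19 to 24 in mesenteric low libraries. The part of depth and of effector, memory or follicular helper cells in the Pdcd1 result was not tested. In bulk libraries, fewer cells with an open region and less opening per cell cannot be told apart.

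**Figure D2:**
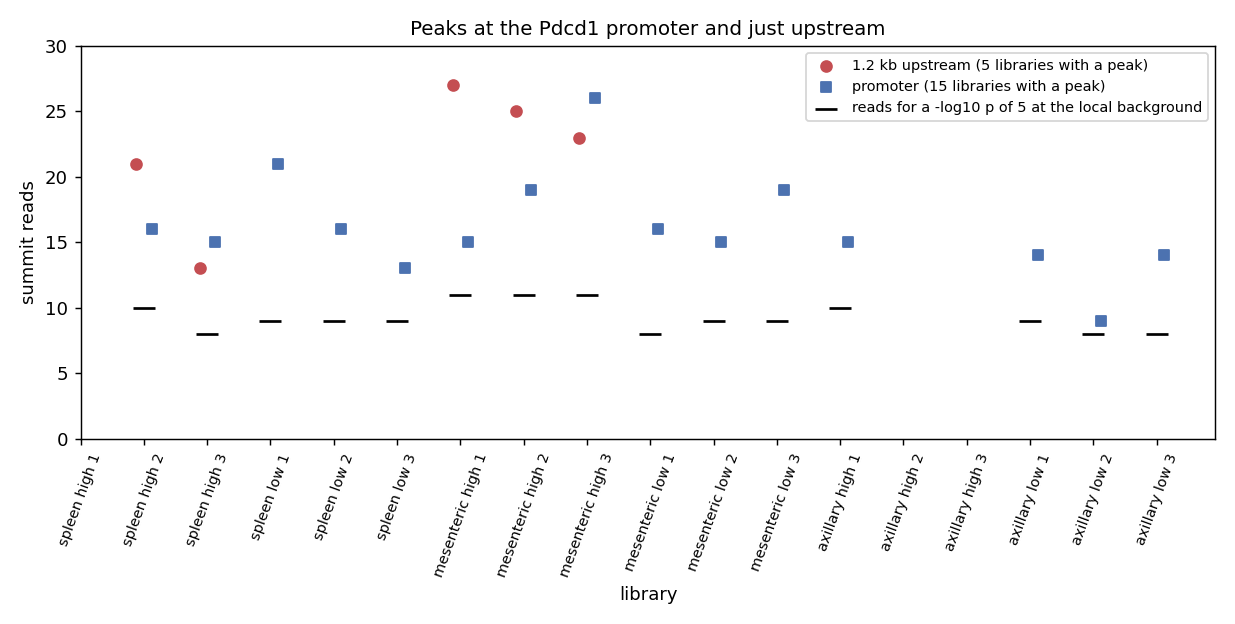
Summit reads (vertical axis) of the peaks at the Pdcd1 promoter (squares) and 1.2 kb upstream (circles) in each of 18 libraries, with the reads that would give a −log10 p of 5 at the background around the promoter (dashes, in libraries with a promoter peak). Circles stand at 13 to 27 reads in 5 high libraries, and a library with no symbol listed no peak.

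The Pdcd1 promoter region itself (chr1:94052274-94052723) was open in 6 of 9 high and 9 of 9 low libraries. The libraries without a peak were spleen high 1, axillary high 2 and axillary high 3. Where present, the peak was modest, with a fold enrichment of 4.73 to 9.16, the authors' own value of how far the summit stands above the background around it. The median over libraries, 6.61, stood at the 48.2nd percentile of all union regions. Summits lay 6 to 179 bp from the annotated start.

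The 3 regions around Pdcd1 with a peak in every library were stronger than its promoter. The region 39.4 kb upstream (chr1:94091568-94092245) had a median fold of 13.9, the region 26.7 kb upstream (chr1:94078999-94079526) 12.8, and the region 17.2 kb downstream of the start (chr1:94034873-94035875), which is 2931 bp behind the gene, 13.03. All 3 stood at or above the 95.3rd percentile of median fold. The sixth region, 94.8 kb upstream (chr1:94147137-94147594), carried a peak in 3 high libraries and 2 low ones and is the member nearest to the 100000 bp limit of the assignment. Beyond the limit, the next region nearest to one of the genes lay 249151 bp from Tigit.

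Levels were compared only in the 8756 regions that all 18 libraries shared, 10 of them receptor regions. Summit reads were divided by each library's median over these regions and brought to a common scale, called scaled summit reads here. Differences were tested with limma on the log2 scale, with adjusted p-values over all 8756 regions. Between high and low libraries over all organs, 142 regions (1.62%) were called, 75 of them (0.857%) lower in high cells. One of the 10 receptor regions was called, the Btla region behind the gene. The 10 log2 differences had a median of -0.03, against -0.02 over all regions tested.

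The Pdcd1 region 26.7 kb upstream differed most between high and low within an organ. It had 19.6, 16.6 and 21.8 scaled summit reads in mesenteric high libraries, against 29.5, 23.6 and 38.3 in mesenteric low libraries. All 3 mesenteric high libraries were below all 3 mesenteric low ones. It had 23.6, 24.6 and 25.7 in spleen high libraries, against 21.6, 25.7 and 22.6 in spleen low libraries, and 20.5, 21.4 and 24.9 in axillary high libraries, against 21.5, 22.6 and 25.0 in axillary low libraries. The groups overlapped in both of these organs. The mesenteric difference was -0.64 (log2, SE 0.19) and missed the threshold with limma, at an adjusted p of 0.0527. Among all regions 1.55% were called in mesenteric nodes, 0.206% in spleen and 0.240% in axillary nodes, and of the 10 receptor regions 0 were called in any of the 3.

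The same contrast passed when only spleen and mesenteric libraries with fragment estimates under 200 bp were fitted (limma, adjusted p = 0.0228). It passed as well when regions were limited to a mean of at least 20 summit reads (limma, adjusted p = 0.0403). It also passed without mesenteric low 2 (limma, log2 -0.81, adjusted p = 0.0266), spleen low 3 or any 1 axillary library. Dropping spleen low 3 or an axillary library left the log2 difference itself unchanged at -0.64. The largest adjusted p among the alternatives was 0.378 (limma, log2 -0.46), without mesenteric low 3. The contrast also failed without mesenteric high 1, 2 or 3 (limma, adjusted p = 0.1445, 0.300 and 0.0770) and without mesenteric low 1 (0.119). It failed over the genome-wide background (limma, adjusted p = 0.115) and with reads in the 10 kb around the summit (0.250). Whether high minus low differed between organs was tested directly, and the F-test over the 3 organs gave an adjusted p of 0.349 with limma for this region. That test called 0.251% of all regions and 0 of the 10 receptor regions.

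**Figure D3:**
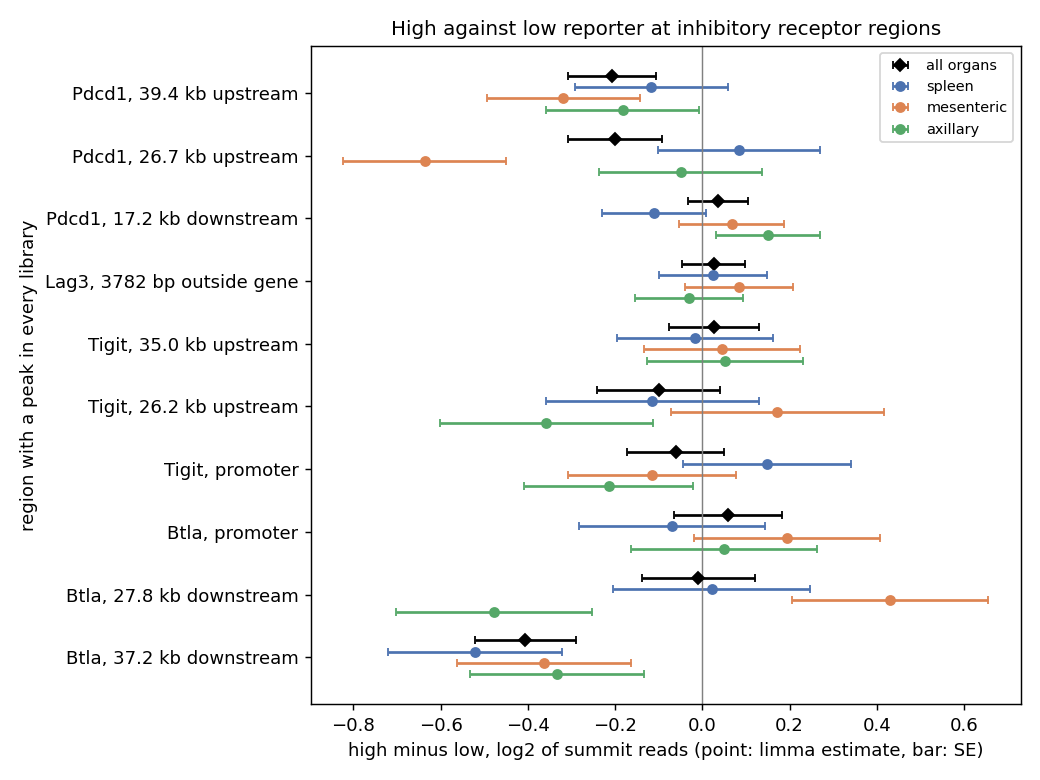
High minus low difference in log2 summit reads (horizontal axis, limma estimate with its SE) for the 10 receptor regions with a peak in every library, over all organs (diamonds) and within spleen, mesenteric and axillary nodes (circles). The Btla region 37.2 kb downstream of the start lies below 0 in all 3 organs, and the Pdcd1 region 26.7 kb upstream lies at -0.64 in mesenteric nodes.

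Btla (chr16:45223705-45252895, plus strand) had 5 regions, of which 3 had a peak in every library: the promoter (chr16:45223486-45224723), a region inside the gene 27.8 kb downstream of the start (chr16:45251729-45252506) and a region 37.2 kb downstream (chr16:45261228-45261829), which is 8633 bp behind the gene. The region behind the gene was lower in high cells. Scaled summit reads there had a lowest value of 15.4, a median of 19.6 and a highest value of 22.6 over 9 high libraries, against 19.6, 23.6 and 36.2 over 9 low libraries. The ranges overlapped. The difference was -0.41 (log2, SE 0.12), called with limma at an adjusted p of 0.0405.

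By organ, the Btla region behind the gene had 17.5, 22.6 and 15.4 scaled summit reads in spleen high libraries, against 23.6, 23.6 and 32.3 in spleen low libraries. It had 18.8, 19.6 and 20.3 in mesenteric high libraries, against 19.6, 28.5 and 28.5 in mesenteric low libraries, and 21.6, 20.2 and 18.1 in axillary high libraries, against 20.3, 36.2 and 21.4 in axillary low libraries. High and low did not overlap in spleen and overlapped in both kinds of node. The differences of -0.52 in spleen, -0.36 in mesenteric nodes and -0.33 in axillary nodes were not called within any organ.

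This call depended on single libraries. It was kept in 7 of the 18 fits that left out 1 library, and the largest adjusted p, 0.160 (limma), came without axillary low 2. It was lost without spleen high 1 or 3, spleen low 3, any 1 mesenteric high library, mesenteric low 2 or 3, axillary high 2 or 3, or axillary low 2. With the deposited fold in place of summit reads the difference was -0.27 (limma, adjusted p = 0.288).

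The Btla region inside the gene showed no common direction. It had 18.1, 15.8 and 15.8 scaled summit reads in mesenteric high libraries, against 12.8, 9.82 and 14.7 in mesenteric low libraries, and 13.3, 11.9 and 12.4 in axillary high libraries, against 16.9, 20.3 and 15.5 in axillary low libraries. High was above low without overlap in mesenteric nodes and below low without overlap in axillary nodes. Neither difference passed (limma, log2 0.43, SE 0.23, adjusted p = 0.422 in mesenteric nodes, and -0.48, SE 0.23, adjusted p = 0.474 in axillary nodes), and the F-test between organs gave an adjusted p of 0.374 with limma. The other 2 Btla regions had peaks in few libraries, 10.3 kb downstream in 2 axillary low libraries and 51.4 kb downstream in 1 mesenteric high library.

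Organ was the second factor of the design. Between axillary and spleen libraries, 594 regions (6.78%) were called with limma and 301 (3.44%) were higher in axillary cells; 2 of the 10 receptor regions were called, both higher. Between mesenteric and axillary libraries, 1015 regions (11.6%) were called and 634 (7.24%) were lower in mesenteric cells; 2 of 10 receptor regions were called, both lower. Between mesenteric and spleen libraries, 166 regions (1.90%) were called and 0 of 10 receptor regions. The 10 receptor regions had a median log2 difference of 0.20 in axillary minus spleen and -0.21 in mesenteric minus axillary, against -0.01 in both over all regions tested. These contrasts share libraries, and axillary libraries had the longer fragment estimates with 1 exception, so organ and fragment estimate cannot be told apart in full.

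The Btla promoter was lower in mesenteric than in axillary cells. Scaled summit reads had a lowest value of 13.6, a median of 13.8 and a highest value of 17.3 over 6 mesenteric libraries, against 20.3, 22.0 and 22.6 over 6 axillary libraries. The 2 organs did not overlap. The difference was -0.57 (log2, SE 0.15; limma, adjusted p = 0.00692) and was called in all 18 fits that left out 1 library. Axillary high 2, with a fragment estimate of 176 bp, had 21.4, inside the range of the other axillary libraries. That is a single library, and the part of fragment estimate here was not tested. With the deposited fold the difference was -0.21 and was not called (limma, adjusted p = 0.207).

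The Tigit promoter was higher in axillary than in spleen cells. It had a lowest value of 23.6 scaled summit reads, a median of 27.3 and a highest value of 35.0 over 6 axillary libraries, against 17.2, 18.6 and 22.6 over 6 spleen libraries. The organs did not overlap. The difference was 0.55 (log2, SE 0.14; limma, adjusted p = 0.00546) and was called in all 18 fits that left out 1 library. Axillary high 2, with a short estimate, had 29.7, and spleen low 3, with a long estimate of 233 bp, had 17.2, the lowest of the spleen libraries. Each is a single library, and the part of fragment estimate was not tested. Mesenteric libraries had 17.3 to 27.5, and mesenteric minus axillary was -0.38 (limma, adjusted p = 0.0511). That contrast passed without spleen high 3, spleen low 3, mesenteric high 2, mesenteric low 2, axillary high 1 or axillary low 3 (limma, adjusted p = 0.022 to 0.04996). It also passed with the replicate block (limma, adjusted p = 0.0483), with a mean of at least 20 summit reads (0.0420), at a −log10 p of at least 10 (0.0427) and over the genome-wide background (0.00265). The contrast failed with the deposited fold (limma, log2 -0.23, adjusted p = 0.230) and with reads in the 10 kb around the summit (-0.17, 0.240).

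**Figure D4:**
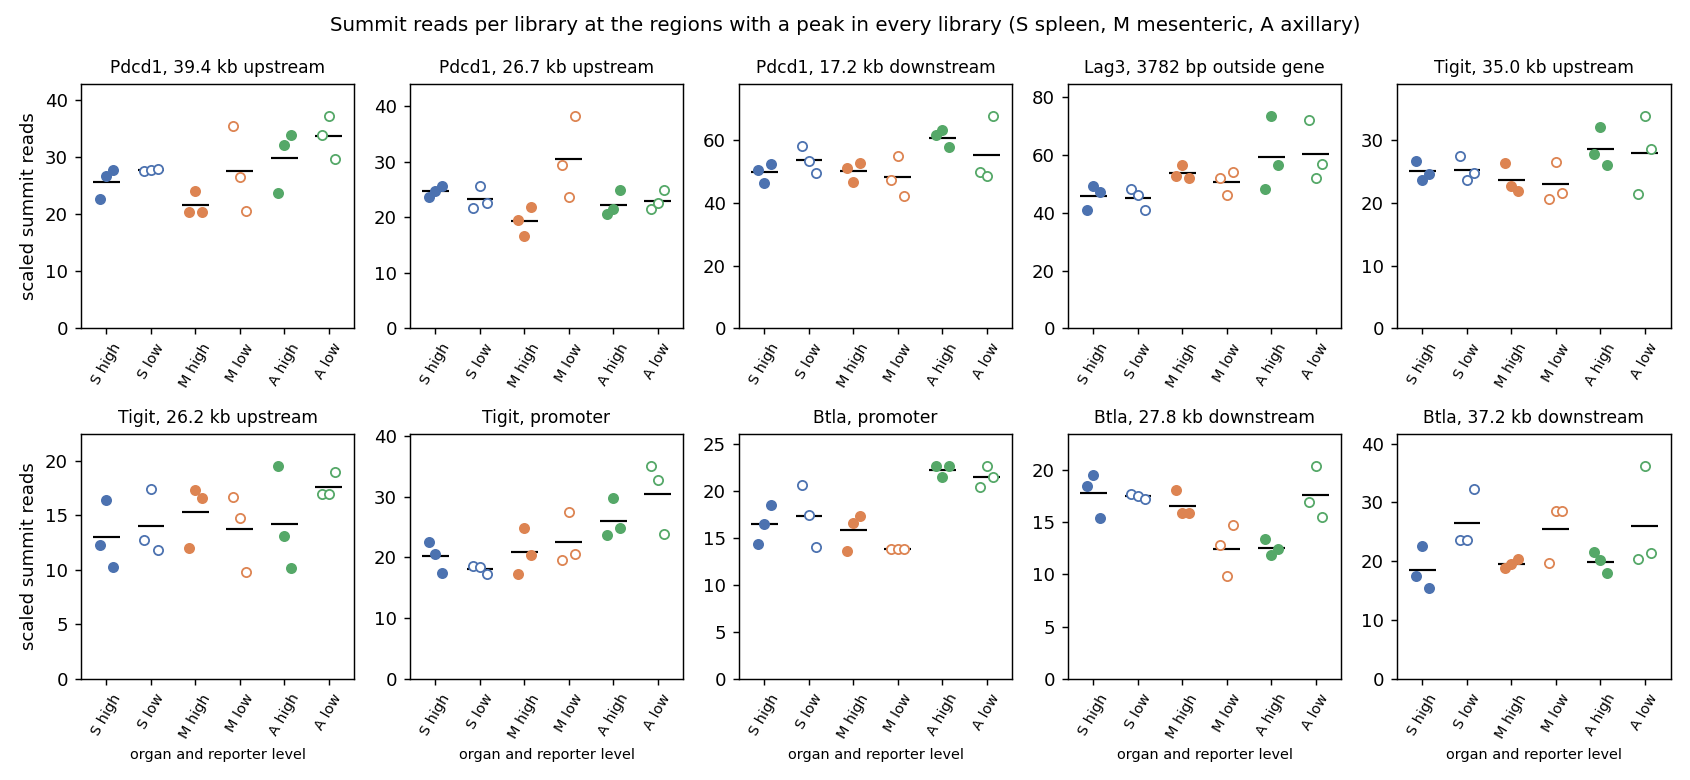
Scaled summit reads (vertical axes, starting at 0) of each library at the 10 receptor regions with a peak in every library, by organ and reporter level (S spleen, M mesenteric, A axillary; filled circles high, open circles low; lines are means of 3). Axillary libraries stand above mesenteric ones at the Btla promoter, and mesenteric high below mesenteric low at the Pdcd1 region 26.7 kb upstream.

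Tigit (chr16:43626137-43665125, minus strand) had 7 regions. Besides the promoter (chr16:43663985-43664616, median fold 10.8), the regions 26.2 kb upstream (chr16:43689999-43690727, median fold 8.57) and 35.0 kb upstream (chr16:43698761-43699620, median fold 10.8) had a peak in every library. Neither upstream region was called in any contrast. The 3 regions farthest downstream, 39.1, 90.1 and 124 kb from the start, lie inside the body of Zbtb20, a gene of a transcriptional repressor next to Tigit, and were assigned to Tigit because its end is the nearest. The region 39.1 kb downstream (chr16:43624863-43625329) carried one in 7 high libraries and all 9 low ones, missing in spleen high 2 and 3.

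None of the less frequent Tigit regions passed the presence test across organs. That test called 0 of 7630 regions (0.00%) at an adjusted p under 0.05, and 851 (11.2%) had an unadjusted p under 0.05. The region 13.6 kb downstream, inside Tigit (chr16:43650446-43650735), had a peak in 4 mesenteric, 0 axillary and 1 spleen libraries (exact Fisher-Freeman-Halton p = 0.0651, adjusted 0.385). The region 90.1 kb downstream (chr16:43573813-43574413) had a peak in 5 mesenteric, 4 axillary and 1 spleen libraries (exact p = 0.110, adjusted 0.385). The region 124 kb downstream had a peak in 1 mesenteric low library. Its nearest gene end lay 85910 bp away.

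**Figure D5:**
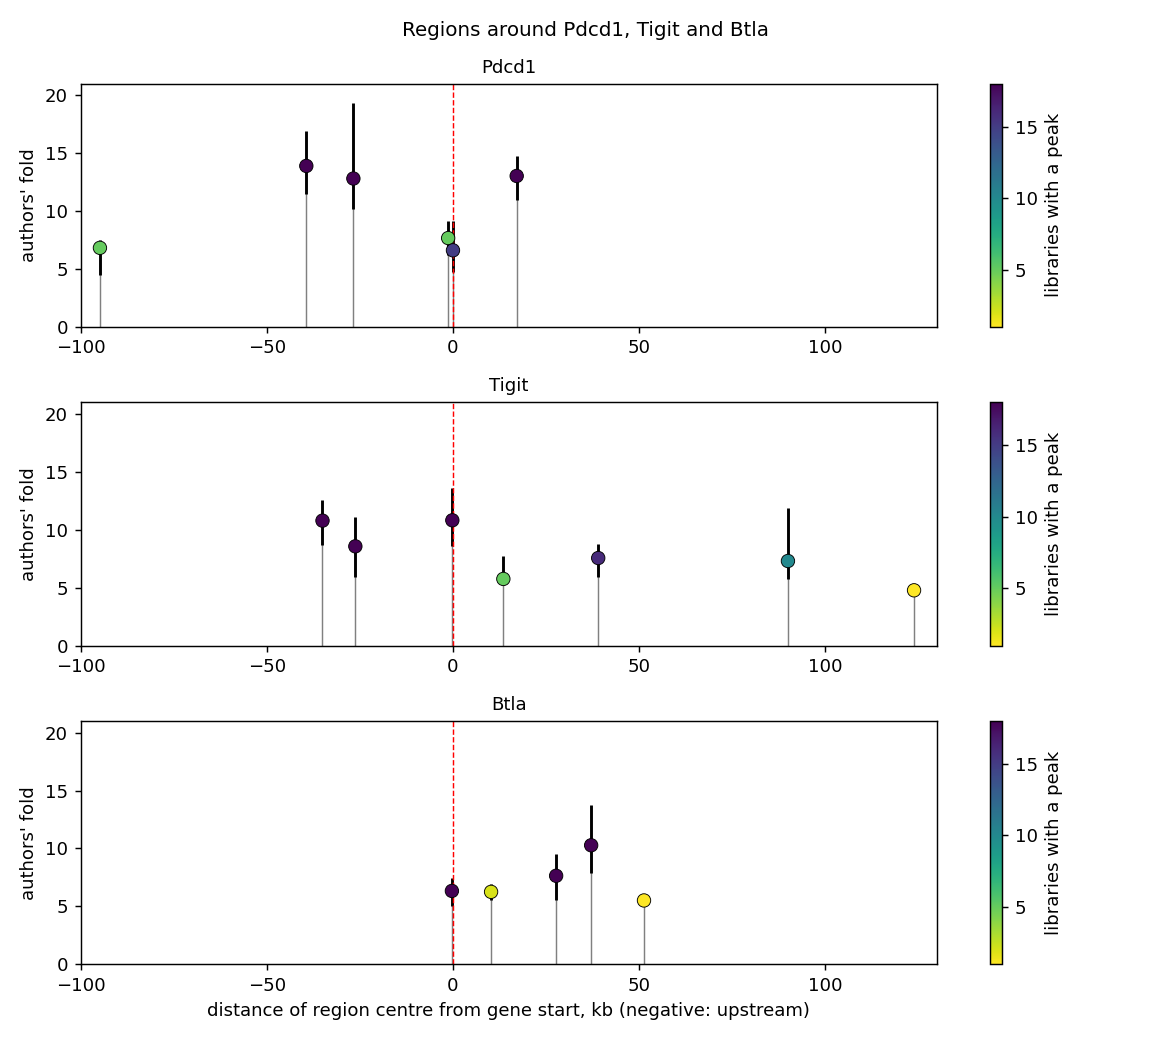
Authors' fold enrichment (vertical axis; point, median over libraries with a peak; bar, lowest to highest) of each region against the distance of its centre from the gene start in kb (horizontal axis, negative upstream, dashed line at the start) for Pdcd1, Tigit and Btla. Colour gives the libraries with a peak, from 1 to 18, and the strongest Pdcd1 regions lie 39.4 kb upstream, 17.2 kb downstream and 26.7 kb upstream.

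Lag3 (chr6:124904359-124912434) had 3 regions, with 1 in every library. That region (chr6:124900353-124900800) lies 3782 bp outside the gene, between Lag3 and Cd4. As background, mouse Cd4 has a known proximal enhancer upstream of its promoter, and whether this region is the same element was not examined. It had the strongest peaks of the 21, with a median fold of 16.8 at the 99.6th percentile of all union regions. The other Lag3 regions were weak, 1 at 598 bp outside the gene with peaks in mesenteric high 2 and 3 (fold 4.53 to 4.99) and 1 inside the gene with a peak in spleen high 1 (fold 4.09).

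The region between Lag3 and Cd4 was higher in axillary than in spleen cells. It had a lowest value of 48.3 scaled summit reads, a median of 56.8 and a highest value of 73.7 over 6 axillary libraries, against 40.9, 46.7 and 49.3 over 6 spleen libraries. The 2 ranges overlapped slightly, since axillary high 1 was below the highest spleen library. The difference was 0.38 (log2, SE 0.09; limma, adjusted p = 0.00243) and was called in all 18 fits that left out 1 library. Axillary high 2, with a short fragment estimate, had the highest value, 73.7, and spleen low 3, with a long one, the lowest, 40.9. These are single libraries, and the part of fragment estimate in the difference was not tested. High minus low was 0.03 (SE 0.07).

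The Pdcd1 region 39.4 kb upstream was lower in mesenteric than in axillary cells. It had a lowest value of 20.3 scaled summit reads, a median of 22.4 and a highest value of 35.4 over 6 mesenteric libraries, against 23.6, 33.0 and 37.3 over 6 axillary libraries. The organs overlapped, with mesenteric low 1 among the high values. The difference was -0.39 (log2, SE 0.12; limma, adjusted p = 0.0288), kept in 12 of 18 fits that left out 1 library. It was lost without mesenteric high 1 or 3, mesenteric low 3 (adjusted p = 0.144, the largest), axillary high 2 or 3 or axillary low 2. The Pdcd1 region behind the gene had 42.2 to 55.02 scaled summit reads over mesenteric and 48.6 to 67.8 over axillary libraries, which overlapped. Its difference of -0.23 (log2, SE 0.08) missed the threshold with limma (adjusted p = 0.0540) and passed without spleen low 3, mesenteric low 2, or axillary low 1 or 2. It also passed with a mean of at least 20 summit reads (limma, adjusted p = 0.0457), at a −log10 p of at least 10 (0.0464) and over the genome-wide background (0.00297). The contrast failed with the deposited fold (limma, log2 -0.17, adjusted p = 0.257) and with reads in the 10 kb around the summit (-0.055, 0.583).

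Havcr2 (chr11:46454931-46481255) had 0 union regions inside it and 0 assigned to it. The nearest peak on the side of its start lay 6653 bp away, in 3 spleen libraries (1 high and 2 low), and belonged by the rule to Med7, a gene of a Mediator subunit. The nearest region with a peak in all 18 libraries lay 17816 bp away, also at Med7. Behind the gene the next union region was 2306843 bp away. The absence of a listed peak says only that nothing passed the authors' threshold at this depth.

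Other genes of these pathways were taken from lists, by the same nearest-end rule. Of 10 ligand genes, 7 had regions, 32 in all, and 8 of these had a peak in every library. None of the 8 was called in high minus low with limma (median log2 0.06, with 1.62% of all regions called), and 3 were higher in axillary than in spleen cells, against 3.44% of all regions. These lay at Pdcd1lg2, which encodes PD-L2, a ligand of PD-1 (a mean of 29.9 scaled summit reads in axillary and 18.5 in spleen libraries), at Tnfrsf14, which encodes the BTLA partner HVEM (27.3 in axillary and 19.5 in spleen libraries), and at Hmgb1, a nuclear protein that TIM-3 can bind (18.7 in axillary and 11.96 in spleen libraries). The Pdcd1lg2 region was also the 1 of 8 that was lower in mesenteric than in axillary cells, against 7.24% of all regions, with a mean of 21.4 scaled summit reads in mesenteric libraries and 29.9 in axillary ones (limma, log2 -0.50, SE 0.14, adjusted p = 0.0110). Of 7 tested regions of the competing or paired receptors Cd226, Cd96, Cd160 and Cd28, 0 were called in high minus low with limma (median log2 -0.12, with 1.62% of all regions called). There, 3 were higher in axillary than in spleen cells (limma, adjusted p = 0.000796 to 0.0351), against 3.44% of all regions. Of these, 2 lay at Cd28 and 1 at Cd226, the activating rival of TIGIT. Lower in mesenteric than in axillary cells were 4 (limma, adjusted p = 0.00986 to 0.0411), 3 at Cd28 and the same Cd226 region, against 7.24% of all regions.

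In peak presence, unadjusted p-values under 0.05 for high against low, which 6.10% of all tested regions had, were found in 0 of 4 tested ligand regions, 1 of 4 of the competing or paired receptors, 1 of 5 of the intracellular partners and 0 of 10 of the other inhibitory receptors. The first was a second Cd226 region, listed by 6 high libraries and 0 low ones (Fisher's exact p = 0.00905, adjusted 0.455), and the other a region of Fyn, a Src family kinase among the intracellular partners, listed by 8 high libraries and 1 low library (Fisher's exact p = 0.00337, adjusted 0.395). Neither passed the adjustment. Among all 350 regions with an unadjusted p under 0.05 in this test, 335 leaned to high libraries and 15 to low ones. Of the intracellular partners, 2 regions had a peak in every library and 0 were called in any contrast. Of the other inhibitory receptors (among them Ctla4, Cd5 and Klrg1) all 8 genes had regions, 37 in all, and 0 of 3 tested regions were called in any contrast, with limma. Across organs, 1 of the 14 regions of this list that could be tested for presence had an unadjusted p under 0.05, against 11.2% of all regions. This region, at Cd5, had a peak in 5 mesenteric, 0 axillary and 2 spleen libraries (exact Fisher-Freeman-Halton p = 0.0181, adjusted 0.281).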

How the data were processed

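Per the labels, ATAC-seq was made from nuclei of sorted cells, and 18 peak lists, 1 per library, were deposited on mm10. Per the submitters' processing notes, reads were processed with Trimmomatic 0.33, Bowtie2, bedtools and MACS; the sources used here do not give caller options, read shifting or duplicate handling. The deposited columns hold, for each peak, a score, a −log10 p, a −log10 q and a fold (a ratio of summit reads to local background), all the authors' own values.

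From 314829 peaks, the 314425 on numbered chromosomes and X were merged into 33115 regions (median width 425 bp). The fold is (pileup + 1)/(background + 1) and the p a Poisson tail, so whole summit reads and the local background were recovered by trying every read number. All peaks (100%) had a match within 0.002 on the −log10 scale, and 99.3% had exactly 1. Local backgrounds over 10 kb came out as whole reads within 0.02 in 100%. The caller extends reads to the fragment estimate, so a summit gathers reads over a longer stretch in libraries with long estimates.

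Summit reads were log2-transformed without a pseudocount (all are above 0), centred on the library median and fitted with limma 3.58.1 (R 4.3.3; 6 group means, trended variance). Presence used exact tests in Python 3.11.15 with scipy 1.17.1. P-values were adjusted by Benjamini-Hochberg and the threshold was 0.05. Scripts were tested on simulated data. Every region of the 5 genes is named; other genes come from lists and are named where a test passed or an unadjusted p was under 0.05. The members and lists were chosen with earlier results of these data known. Gene positions and promoter sequences came from RefSeq tables of GRCm38.p6; 4 of 5 genes matched the promoter table. The limma SEs and p-values rest on the spread of recovered reads among libraries within groups, not on counting error alone.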

Additional observations from a re-analysis of the deposited data

Results flagged for a closer look

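The reads in the 10 kb around the Btla promoter summit, which the caller uses as local background and which were not compared on their own above, moved differently with the reporter in different organs. High minus low was 0.45 (log2, SE 0.11; limma, adjusted p = 0.00862) in mesenteric nodes and -0.25 (SE 0.11; limma, adjusted p = 0.320) in spleen, a difference of 0.703 between the 2 organs (limma, adjusted p = 0.00624). In axillary nodes it was -0.05. The F-test over the 3 organs had an adjusted p of 0.0125 with limma. This measure was added after the data were seen, and at the summit itself the same difference was 0.26 and was not called (limma, adjusted p = 0.835). With the deposited fold it was -0.16 (limma, adjusted p = 0.831).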

How the results depend on the processing

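None of the 5 receptor calls reversed its direction. Some differences not called in the main fit changed sign. Over the genome-wide background, high minus low was -0.07 (main fit 0.03) at Lag3 and -0.06 (0.04) at the Pdcd1 region behind the gene. It was -0.07 (0.03) at the Tigit region 35.0 kb upstream and -0.04 (0.06) at the Btla promoter. Axillary minus spleen at the Btla region inside the gene was 0.07 there (main fit -0.25). With reads in 10 kb, mesenteric minus spleen at the Pdcd1 region behind the gene was 0.29 (limma, adjusted p = 0.000239), against -0.07 in the main fit. That measure called 3579 of 8756 regions in this contrast. The Tigit promoter and Lag3 calls (axillary minus spleen), the Btla promoter and Pdcd1 39.4 kb calls (mesenteric minus axillary) and the Btla call 37.2 kb downstream (high minus low) were all lost with the deposited fold (limma, adjusted p = 0.0852, 0.133, 0.207, 0.482 and 0.288, at log2 0.37, 0.22, -0.21, -0.11 and -0.27). With reads in the 10 kb around the summit, axillary minus spleen was 0.44 at the Tigit promoter and 0.37 at Lag3 (limma, adjusted p = 0.000583 and 0.000112). Mesenteric minus axillary was -0.48 at the Btla promoter and -0.39 at the Pdcd1 39.4 kb region (limma, adjusted p = 3.48e-06 and 0.00573). That measure called 2287 and 1932 of 8756 regions in these contrasts. The Btla call 37.2 kb downstream was also lost with reads in 10 kb (-0.20) and with centring on the median log2 ratio (-0.39). With short fragment estimates only, which left spleen and mesenteric nodes, it was lost at -0.37. The last 3 of these alternatives were chosen after seeing the data. The cause was not tested.

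Counts of called regions moved as follows. For high minus low (142), the count was 20 with the deposited fold, 91 with at least 20 mean reads, 92 at a −log10 p of at least 10, 449 with reads in 10 kb and 67 with short fragments, the last 2 fits with other values or fewer libraries. The short-fragment fit left out all axillary libraries, so its high minus low averaged spleen and mesenteric nodes only. Mesenteric minus spleen (166) gave 3 with the fold and 3579 with 10 kb reads. Axillary minus spleen (594) gave 3965 over the genome-wide background, 70 with the fold and 2287 with 10 kb reads. Mesenteric minus axillary (1015) gave 2029, 241 and 1932 in the same order. Within spleen (18) the counts were 4, 4 and 104, with 10 at the stricter −log10 p. Within mesenteric nodes (136) they were 28, 21 and 293, with 268 for short fragments. Within axillary nodes (21) they were 6, 0 and 94 (627 unadjusted with the fold), and for the difference between organs (22) 0, 0 and 132 (546 and 807 unadjusted with the first 2).

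Scaling over the genome-wide background moved the median of all regions by 0.32 in axillary minus spleen, -0.19 in mesenteric minus axillary, 0.13 in mesenteric minus spleen and -0.10 in high minus low, so part of each difference under it is that shift. It called 7 and 6 receptor regions in the first 2 of these contrasts.

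Leaving out 1 library gave 78 to 161 calls for high minus low, 57 to 187 for mesenteric minus spleen, 405 to 586 for axillary minus spleen, 679 to 1048 for mesenteric minus axillary, 5 to 19 within spleen, 41 to 166 within mesenteric nodes, 14 to 26 within axillary nodes and 5 to 26 for the difference between organs. Presence tests stayed at 0 calls in every alternative run. Same-numbered libraries did not deviate together (correlations of -0.03 to 0.04 over 45 pairs). No pairing by replicate number was seen, but deviations from means of few libraries cannot exclude one where counting noise is large. With the replicate block, 157 regions were called in high minus low and the 5 receptor calls were kept. The Tigit promoter was called too in mesenteric minus axillary in that fit (limma, adjusted p = 0.0483). The Pdcd1 region 26.7 kb upstream in mesenteric nodes stood near the threshold, with an adjusted p from 0.0228 (short fragments) to 0.378 (without mesenteric low 3) with limma, and 0.191 with the deposited fold. A 50000 bp limit kept 18 of the 21 regions, and assignment by gene start gave 21, of which 16 were the same. The axillary contrasts could not be fitted with short fragments, since no axillary low library has one. Regions with few summit reads, such as the weaker Tigit ones and the Lag3 region inside the gene, lie near the depth limit of the shallower libraries.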
